A study of Mus musculus with 12 samples.

Results

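The 10 genes of fatty acid uptake and lipid storage described here were measured in mouse bone marrow mesenchymal stem cells (MSCs): Lpl, Cd36, Slc27a1, Fabp4, Fabp5, Plin2, Plin4, Pnpla2, Scd1 and Cpt1c. They were taken as a list of lipid-handling genes, among which Fabp4, Plin2, Lpl and Cd36 were already known to differ between genotypes in a way that depended on the medium, and they are 10 of the 54532 genes listed in the deposited expression table. Of these, 6 (Scd1, Fabp4, Cpt1c, Plin2, Plin4 and Lpl) also stand in the study's own heatmap of PPAR-associated genes, which may have been picked on these libraries. Of all listed genes, 12871 passed the filter on low values, which asked for at least 1 FPKM (fragments per kilobase of exon, scaled to the mapped fragments of the library) in at least 3 libraries. All 10 lipid genes passed it, 9 of them with at least 1 FPKM in all 12 libraries and Plin4 in 7. Because the genotype differences were known when the genes were chosen, those differences are given as values with their standard errors (SE) and without a test. Each SE rests on a spread pooled over all 4 groups, so it can overstate or understate the spread of a single group. The difference between the media, averaged over the genotypes, was tested. In the balanced fit of all 12 libraries its estimate is uncorrelated with those of the genotype differences. Fits that leave a library out lose this balance, and the genes were chosen with earlier results of these data known.

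The cells carried Chd7 alleles with loxP sites around exon 2. The control cells were Chd7 fl/fl, labelled WT, and the others carried Prx1-cre in addition and were labelled Chd7 KO. Chd7 encodes a chromatin remodelling enzyme, and Prx1-cre acts in the mesenchyme of the early limb, so blood-derived cells of the marrow lie outside its known domain. The mice were 4 weeks old and on a C57BL/6 background, and the marrow cells were flushed from limb bones and used at passage 3. Cells were kept for 5 days in osteogenic medium (β-glycerophosphate at 10 mM, ascorbic acid at 50 µM and dexamethasone at 10 nM) or in adipogenic medium (isobutylmethylxanthine at 0.5 µM, dexamethasone at 1 µM and insulin at 10 µg/ml). Each of the 4 groups had 3 RNA-seq libraries. The labels do not say whether these came from separate mice or cultures, so the p-values measure the spread between libraries, which may be technical. The question behind the comparison was how loss of Chd7 affects the cells under signals for bone or for fat formation.

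Fatty acids reach a cell either as free acids or from lipoprotein triglycerides that lipoprotein lipase cleaves outside the cell. They cross the membrane with the help of CD36 and of fatty acid transport proteins, are carried in the cytosol by fatty acid binding proteins, and are esterified and stored in lipid droplets, whose surface is coated by perilipins. Lipases release them again for oxidation or signalling. Several of these genes are classical targets of PPARγ, the nuclear receptor that drives fat cell formation, and macrophages are also known to express Cd36, Lpl, Fabp4, Fabp5 and Plin2.

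PPARγ and its partner RXR bind direct repeats of AGGTCA spaced by 1 base, so the promoters were searched for AGGTCANAGGTCA on both strands, allowing up to 2 mismatches at the 12 fixed positions. RefSeq promoter windows, 250 bases before to 50 bases after the transcription start on GRCm38.p6, matched 6 of the 10 genes by symbol, with 8 windows in all. A match occurred in Plin2 and Cd36, against 1268 of all 32851 windows (3.86%), and was found in no window of Plin4, Slc27a1, Pnpla2 or Cpt1c. Both windows are shown because their genes differed in opposite directions between the genotypes in adipogenic medium. Each is printed 5′ to 3′ on the strand of its gene, here the minus strand, with the match in capitals. Plin2 is at chr4:86670010-86670309 and Cd36 at chr5:17835847-17836146.
Plin2: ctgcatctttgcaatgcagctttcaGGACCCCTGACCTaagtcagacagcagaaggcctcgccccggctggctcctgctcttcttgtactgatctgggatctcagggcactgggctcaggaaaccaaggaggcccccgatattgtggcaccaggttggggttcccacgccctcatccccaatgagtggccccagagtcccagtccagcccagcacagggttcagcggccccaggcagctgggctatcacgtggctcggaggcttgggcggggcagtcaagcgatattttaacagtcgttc
Cd36: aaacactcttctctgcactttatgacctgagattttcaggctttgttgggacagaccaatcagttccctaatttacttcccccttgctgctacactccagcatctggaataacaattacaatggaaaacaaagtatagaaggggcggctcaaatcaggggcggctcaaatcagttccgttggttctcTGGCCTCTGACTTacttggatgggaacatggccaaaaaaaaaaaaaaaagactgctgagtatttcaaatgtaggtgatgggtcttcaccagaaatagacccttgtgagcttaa
Both matches lie in reverse orientation to the gene, and each has 2 mismatches. The Plin2 match starts 225 bases before the transcription start of its window and the Cd36 match 63 bases before that of its own. The Cd36 window lies inside the gene (17781690 to 17888801 on chromosome 5), away from its annotated 5′ end. Other starts of Cd36 were not searched. A sequence match describes these letters and does not show that a factor was bound.

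The libraries held between 17496343 and 21099588 fragments on genes, as recovered from the FPKM values and exonic lengths. Chd7 was at 2.64, 2.67 and 2.77 FPKM in the control osteogenic libraries and at 2.03, 2.35 and 2.28 FPKM in those labelled knockout, without overlap. In adipogenic medium it was at 2.26, 1.81 and 2.23 FPKM in the controls and at 2.03, 2.35 and 2.48 FPKM in the libraries labelled knockout, so the gene's total level did not separate the labels there. A total over all exons is a weak check of a deletion of exon 2. Control adipogenic library 2 stood apart, with a correlation of 0.939 and 0.943 to the other libraries of its group, while control osteogenic and labelled knockout osteogenic libraries correlated at 0.989 to 0.991. Labelled knockout adipogenic library 1 correlated at 0.980 and 0.981 with its group. For the lipid genes, genotype differences in adipogenic medium are therefore given with and without control library 2. The same holds for the counts of related genes further below.

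The cells did not carry the profile of mature adipocytes in either medium. Of 9 mature adipocyte markers, 8 were under 1 FPKM in all libraries, including Adipoq, Plin1, Cidec and Lep, and Pck1 was listed at 0 in all 12; the summed level lay between 1.82 and 3.24 FPKM. Of 11 stromal markers Col1a1 was at 587 to 1073 FPKM, Itgb1 at 317 to 412 FPKM and Pdgfrb at 39.9 to 87.1 FPKM, while Thy1 and Lepr stayed at or below 1.13 FPKM. Of these 11 markers 7 were higher and 1 lower without overlap in labelled knockout osteogenic libraries (21% and 23.2% of all genes). In adipogenic medium 5 were higher and 2 lower (20.2% and 18.4% of all genes). Without control adipogenic library 2 the counts were 5 and 4, where 66.1% of all genes did not overlap. All 15 macrophage markers were detected in every group. Their summed level was 14750 to 15262 FPKM in control and 16259 to 16718 FPKM in labelled knockout osteogenic libraries. Of the 15, 10 were lower in the latter without overlap (23.2% of all genes) and 3 were higher (21% of all genes). In adipogenic medium the sum was 19797, 10132 and 19713 FPKM in control libraries 1, 2 and 3, against 8221 to 9755 FPKM in the libraries labelled knockout. There 7 of the 15 were lower without overlap (18.4% of all genes), 3 (C1qa, C1qb and Cd163) were higher (20.2% of all genes) and 5 overlapped. Without control library 2 the counts were 9 lower and 6 higher, where 66.1% of all genes did not overlap. Lyz2 was the most abundant of the 15 in the adipogenic controls, at 13878, 5456 and 14411 FPKM. Without it the other 14 markers summed to 5793 to 5982 FPKM in control and 5203 to 5469 FPKM in labelled knockout osteogenic libraries, and to 5918, 4676 and 5302 FPKM in the adipogenic controls against 4377 to 4744 FPKM. Granulocyte markers summed to 73.9 and 93.1 FPKM in control adipogenic libraries 1 and 3 and to 6.40 FPKM or less in every other library. The part of these markers in the lipid gene results was not tested, and in bulk RNA fewer cells of a type and less RNA per cell cannot be told apart.

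**Figure D1:**
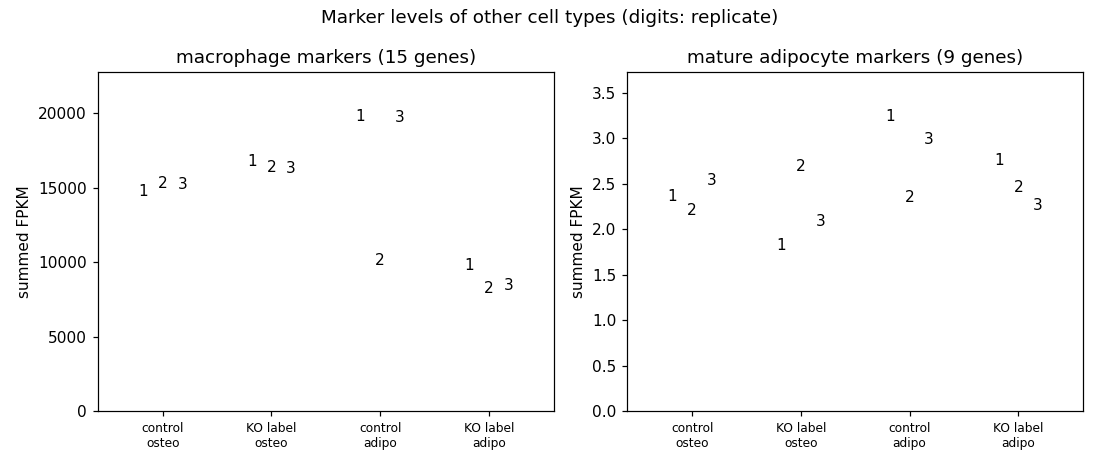
Summed FPKM (y axis, from 0) of 15 macrophage markers (left) and 9 mature adipocyte markers (right) in each library, drawn as its replicate number, for the 4 groups on the x axis. Macrophage markers sum to 19797 and 19713 FPKM in control adipogenic libraries 1 and 3 and to 10132 FPKM in library 2, while mature adipocyte markers stay at 3.24 FPKM or less in all 12 libraries.

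Among the genes of fatty acid uptake, Lpl encodes lipoprotein lipase, the enzyme that frees fatty acids from circulating triglycerides (chromosome 8, 68880491 to 68907448, plus strand; this and the following gene positions are on GRCm38 in GENCODE M21). Lpl was at 116, 117 and 101 FPKM in control osteogenic libraries and at 59.3, 62.6 and 54.7 FPKM in those labelled knockout. In adipogenic medium it was at 54.96, 65.5 and 53.8 FPKM in the controls and at 75.3, 85.7 and 66.0 FPKM in the libraries labelled knockout. The groups did not overlap in either medium, and the direction turned with the medium. The labelled knockout mean was 1.89-fold lower in osteogenic medium, a log2(FPKM + 1) difference of -0.91 ± 0.11 (SE). It was 1.30-fold higher in adipogenic medium, a difference of 0.37 ± 0.11, or 0.46 without control library 2. The separation in adipogenic medium was narrow: with values rescaled to the same sum per library (the TPM scale) the highest control was at 221 and the lowest labelled knockout at 218 TPM, so the groups overlapped.

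Cd36, the fatty acid translocase of the cell membrane (chromosome 5, 17781690 to 17888801, minus strand), followed another order. Its level was 160.2, 167 and 152 FPKM in control and 139, 153 and 142 FPKM in labelled knockout osteogenic libraries, which overlapped. In adipogenic medium the controls were at 214, 165 and 228 FPKM and the libraries labelled knockout at 63.1, 89.1 and 85.1 FPKM, the lowest 3 values of all 12. The labelled knockout mean was 2.56-fold lower there, with a log2 difference of -1.35 ± 0.14, or -1.49 without control library 2. By quantitative RT-PCR after adipogenic induction the study reported the opposite direction, with more Cd36 mRNA in its knockout cells. Whether both measurements used the same samples is not given in the sources used here. In osteogenic medium the log2 difference was -0.14 ± 0.14. Of the 15 macrophage markers 7 were also lower without overlap in these libraries (18.4% of all genes) and 3 were higher (20.2% of all genes). The part of these markers in the Cd36 difference was not tested.

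Slc27a1 encodes fatty acid transport protein 1 (chromosome 8, 71568882 to 71587302, plus strand) and was lower in the libraries labelled knockout in both media. Control osteogenic libraries held 30.7, 32.2 and 29.9 FPKM and the labelled knockout ones 19.3, 17.8 and 18.4 FPKM. In adipogenic medium the values were 34.9, 29.4 and 37.4 FPKM in the controls and 26.0, 23.1 and 23.5 FPKM in the libraries labelled knockout. Neither pair of groups overlapped. The log2 difference was -0.71 ± 0.08 in osteogenic and -0.46 ± 0.08 in adipogenic medium, the latter -0.56 without control library 2.

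**Figure D2:**
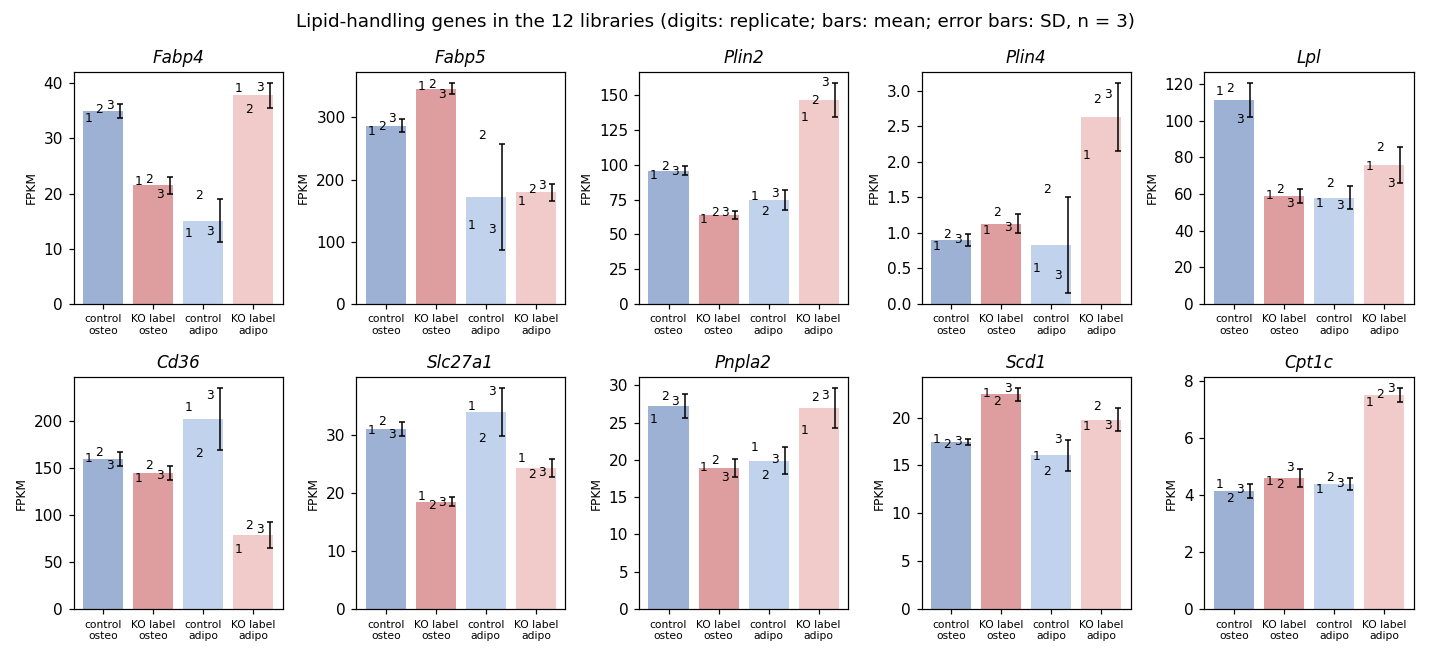
FPKM (y axes, from 0) of the 10 lipid genes in the 4 groups, with bars for the mean, error bars for the SD of 3 libraries and digits for the replicate number of each library. Fabp4, Plin2, Lpl and Pnpla2 are lower in the osteogenic and higher in the adipogenic libraries labelled knockout, and Cd36 is lowest in the adipogenic libraries labelled knockout.

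The carriers of fatty acids in the cytosol did not share a pattern. Fabp4, also known as aP2 and a standard marker of fat cell formation (chromosome 3, 10204088 to 10208576, minus strand), was at 33.7, 35.3 and 36.0 FPKM in control osteogenic libraries and at 22.1, 22.5 and 19.8 FPKM in those labelled knockout. In adipogenic medium the order turned, with 12.7, 19.6 and 13.04 FPKM in the controls and 39.1, 35.2 and 39.2 FPKM in the libraries labelled knockout. No library overlapped between the genotypes in either medium. The mean was 1.63-fold lower (21.5 ± 1.47 against 35.0 ± 1.19 FPKM, SD, n = 3) in osteogenic and 2.50-fold higher (37.8 ± 2.24 against 15.1 ± 3.90 FPKM) in adipogenic medium. On the log2 scale this was a difference of -0.68 ± 0.13 and of 1.29 ± 0.13, the latter 1.48 without control library 2.

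Fabp5, the epidermal fatty acid binding protein (chromosome 3, 10012548 to 10016607, plus strand), had the largest FPKM of the 10 genes in 10 of the 12 libraries. Control osteogenic libraries were at 277, 285 and 298 FPKM and labelled knockout ones at 349, 354 and 336 FPKM, without overlap, a log2 difference of 0.27 ± 0.24. That SE pools the spread of all 4 groups. The SD was 10.7 FPKM in control and 9.13 FPKM in labelled knockout osteogenic libraries, against 85.3 FPKM in the adipogenic controls. In adipogenic medium the controls were at 125, 270.4 and 120.1 FPKM and the libraries labelled knockout at 164, 184 and 190 FPKM. The groups overlapped because control library 2 lay above all others, and the log2 difference was 0.16 ± 0.24 with it and 0.54 without it. How fragments shared with Fabp5 pseudogenes were counted is not given in the sources used here.

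Plin2 and Plin4, both perilipins, were higher in the adipogenic libraries labelled knockout. Plin2, the coat protein found on lipid droplets of most cell types (chromosome 4, 86648386 to 86670060, minus strand), was at 92.4, 99.0 and 95.4 FPKM in control and 60.4, 65.9 and 65.4 FPKM in labelled knockout osteogenic libraries. In adipogenic medium the controls were at 77.5, 66.2 and 79.5 FPKM and the libraries labelled knockout at 134, 146 and 159 FPKM, the highest 3 values of the 12. The labelled knockout mean was 1.5-fold lower in osteogenic (63.9 ± 3.00 against 95.6 ± 3.29 FPKM, SD, n = 3) and 1.97-fold higher in adipogenic medium (147 ± 12.3 against 74.4 ± 7.15 FPKM). The log2 differences were -0.57 ± 0.08 and 0.97 ± 0.08, the latter 0.89 without control library 2. For Plin2 all neighbouring groups in the order of levels were separate: labelled knockout adipogenic, control osteogenic, control adipogenic, labelled knockout osteogenic.

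Plin4, a perilipin of nascent droplets (chromosome 17, 56100591 to 56109803, minus strand), was near the lower limit of the filter, with 37 to 323 fragments per library. It was at 0.81, 0.98 and 0.91 FPKM in control and 1.03, 1.28 and 1.07 FPKM in labelled knockout osteogenic libraries. The adipogenic controls were at 0.50, 1.61 and 0.40 FPKM and the libraries labelled knockout at 2.08, 2.87 and 2.94 FPKM. Control adipogenic library 2 held more than 3 times the level of the other controls, yet no group pair of the genotypes overlapped. Since Plin4 passed the filter through the libraries where it was high, its log2 difference of 1.04 ± 0.21 in adipogenic medium, or 1.32 without control library 2, is a description only, and with a pseudocount of 0.1 in place of 1 it was 1.76.

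Pnpla2 encodes adipose triglyceride lipase, the enzyme of the first step of droplet lipolysis (chromosome 7, 141455198 to 141460743, plus strand). Its level was 25.5, 28.5 and 27.8 FPKM in control and 19.0, 19.99 and 17.6 FPKM in labelled knockout osteogenic libraries. In adipogenic medium it was 21.6, 17.97 and 20.1 FPKM in the controls and 23.9, 28.4 and 28.6 FPKM in the libraries labelled knockout. Its genotype differences thus had the same signs as those of Fabp4, Plin2 and Lpl, with log2 values of -0.51 ± 0.09 in osteogenic and 0.42 ± 0.09 in adipogenic medium and no overlap in either.

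Scd1, which encodes stearoyl-CoA desaturase 1 and introduces a double bond into saturated fatty acids (chromosome 19, 44394455 to 44407879, minus strand), was higher in the libraries labelled knockout in both media. It was at 17.7, 17.1 and 17.5 FPKM in control and 22.6, 21.7 and 23.0 FPKM in labelled knockout osteogenic libraries, and at 16.0, 14.4 and 17.7 FPKM against 19.0, 21.2 and 19.2 FPKM in adipogenic medium. The log2 differences were 0.34 ± 0.07 and 0.29 ± 0.07. Cpt1c, a brain-type carnitine palmitoyltransferase of the endoplasmic reticulum (chromosome 7, 44959372 to 44974851, minus strand), overlapped in osteogenic medium, with 4.38, 3.88 and 4.18 FPKM in control and 4.47, 4.37 and 4.95 FPKM in labelled knockout libraries. In adipogenic medium its controls were at 4.18, 4.59 and 4.40 FPKM and the libraries labelled knockout at 7.25, 7.51 and 7.74 FPKM, above all other libraries. The log2 difference of Cpt1c there was 0.66 ± 0.06, or 0.68 without control library 2.

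In osteogenic medium 8 of the 10 genes did not overlap between the genotypes, with 3 above the controls and 5 below. Of all 12871 genes tested 44.3% did not overlap, 21.0% above and 23.2% below. In adipogenic medium 9 of 10 did not overlap, 7 above the controls and 2 below, against 38.6% of all genes, 20.2% above and 18.4% below. Without control adipogenic library 2 the count was 10, against 66.1% of all genes. The genes had been chosen with these differences known, so nothing is read from the counts. The median log2 difference of the 10 genes was -0.33 in osteogenic and 0.40 in adipogenic medium, where the median of all genes tested was -0.01 in both. These medians describe the same chosen genes and cover opposite values, such as 1.29 for Fabp4 and -1.35 for Cd36 in adipogenic medium. No shift of the list is read from them. Fabp4, Plin2, Lpl and Pnpla2 were lower without overlap in osteogenic and higher without overlap in adipogenic medium. The difference of their differences was 1.97 ± 0.19 for Fabp4, 1.54 ± 0.11 for Plin2, 1.28 ± 0.15 for Lpl and 0.93 ± 0.12 for Pnpla2 on the log2 scale. For Cd36 it was -1.20 ± 0.20, in the other direction. For Scd1 and Slc27a1 the signs were the same in both media, with differences of -0.05 ± 0.10 and 0.25 ± 0.12.

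**Figure D3:**
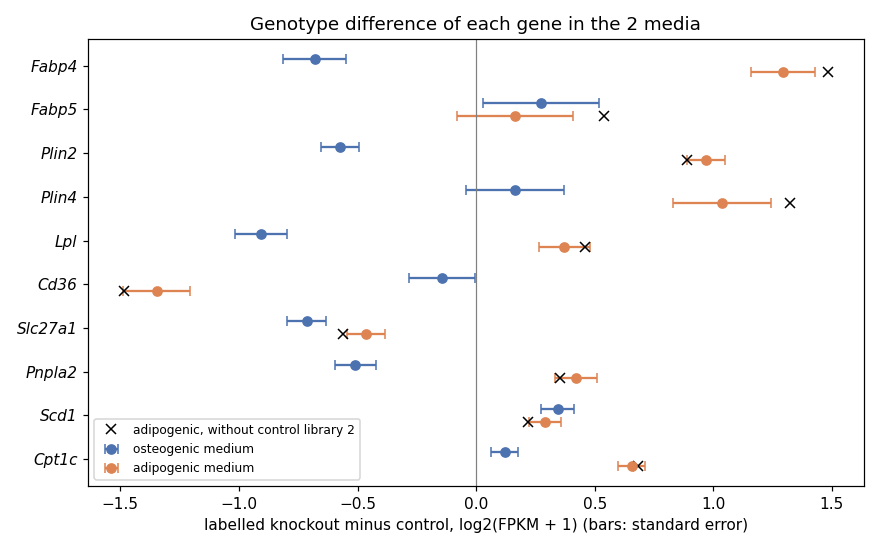
Labelled knockout minus control on the log2(FPKM + 1) scale (x axis) for each of the 10 genes (y axis) in osteogenic medium (blue) and adipogenic medium (orange), with bars for the SE and crosses for adipogenic medium without control library 2. Fabp4 runs from -0.68 to 1.29 and Plin2 from -0.57 to 0.97, while Cd36 lies at -1.35 in adipogenic medium.

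Averaged over the genotypes, 6 of the 10 genes passed limma's test between the media at an adjusted p of 0.05, 3 of them higher and 3 lower in adipogenic medium, where 31.5% of all genes did, 14.9% higher and 16.5% lower. Plin2 (log2 difference 0.41 ± 0.06, limma adjusted p = 0.000707), Cpt1c (0.34 ± 0.04, limma adjusted p = 0.000348) and Slc27a1 (0.25 ± 0.06, limma adjusted p = 0.0108) rose in adipogenic medium. Fabp5 fell most (-0.89 ± 0.17, limma adjusted p = 0.00439), to an average ratio of 0.538. Lpl (-0.29 ± 0.08, limma adjusted p = 0.0182) and Scd1 (-0.15 ± 0.05, limma adjusted p = 0.0439) also fell. The call for Lpl was lost on the TPM scale (adjusted p = 0.0656), and that for Scd1 held in 7 of 21 alternative fits (adjusted p from 0.0138 to 0.0944).

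The average of several genes covered unlike values in the genotypes. Lpl, which passed the test as a fall, was 1.92-fold lower in adipogenic medium in the control libraries and 1.28-fold higher in those labelled knockout. Fabp4 was 2.31-fold lower in adipogenic than in osteogenic medium in the control libraries and 1.76-fold higher in those labelled knockout. Its average of -0.20 ± 0.09 did not pass (limma adjusted p = 0.135). It passed without control adipogenic library 2 (-0.29, limma adjusted p = 0.000346), but that fit is unbalanced, so its average is not independent of the genotype differences. Cd36 was 1.27-fold higher in the controls, with overlap, and 1.83-fold lower in the libraries labelled knockout, with an average of -0.28 ± 0.10 (limma adjusted p = 0.0567) that passed in 4 of 21 alternative fits. Pnpla2 had an average of 0.03 ± 0.06 (95% interval -0.11 to 0.16, limma adjusted p = 0.776), and Plin4 one of 0.33 ± 0.15 (limma adjusted p = 0.112). Plin2, which passed the test as a rise, was itself 1.29-fold lower in the control libraries and 2.29-fold higher in those labelled knockout. Cpt1c and Slc27a1 also passed as rises, but in the control libraries their media overlapped (log2 differences 0.07 and 0.12). In those labelled knockout they were higher without overlap (0.60 and 0.37). Without control adipogenic library 2 the control media of Slc27a1 no longer overlapped (0.22).

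Within the control libraries 5 of the 10 genes did not overlap between the media (34.4% of all genes, 16.2% higher and 18.3% lower), all of them lower in adipogenic medium: Fabp4, Fabp5, Plin2, Lpl and Pnpla2. Without control adipogenic library 2 this count was 8, against 66.5% of all genes. Within the libraries labelled knockout all 10 were separate between the media (52.5% of all genes, 26.0% higher and 26.5% lower), 7 of them higher in adipogenic medium, with Fabp5, Cd36 and Scd1 lower. The median log2 difference between the media was -0.24 in the control libraries and 0.43 in those labelled knockout. These within-genotype values share libraries with the genotype differences and carry no test.

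**Figure D4:**
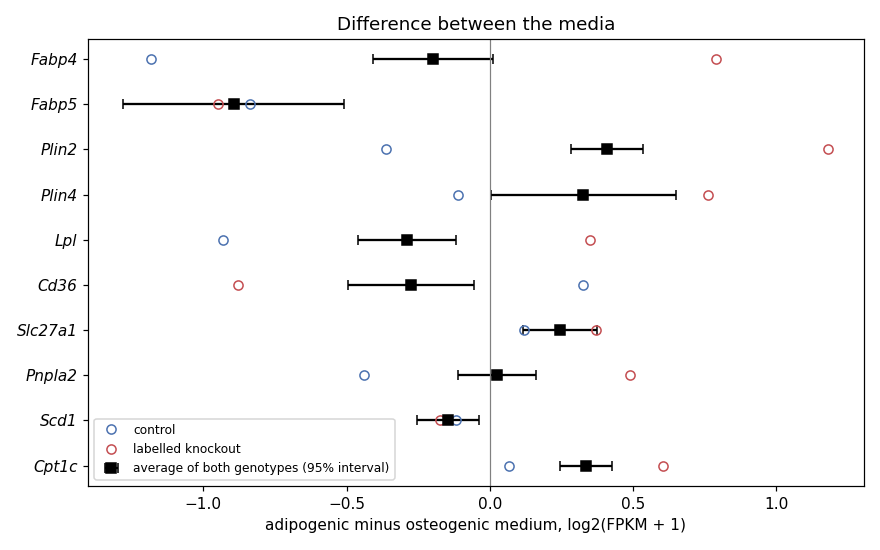
Adipogenic minus osteogenic medium on the log2(FPKM + 1) scale (x axis) for each gene (y axis), as the average of both genotypes (squares, with 95% intervals) and in the control (blue circles) and labelled knockout libraries (red circles). Fabp5 lies below 0 in both genotypes, while Fabp4, Plin2, Lpl and Pnpla2 fall on opposite sides of 0.

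The genes closest in profile were sought for Fabp4, Plin2, Lpl and Cd36, as the root mean square (RMS) difference of the centred log2(FPKM + 1) values over the 12 libraries, among 12870 other genes. For Fabp4, whose own spread around its mean was 0.55, they were Tns1 (0.13), Gprc5b (0.17) and Hmga2 (0.17). For Plin2 they were Zfp697 (0.13), Casp12 (0.14) and Pex13 (0.16), and for Cd36 Ugt1a7c (0.13), Sfn (0.17) and Rgs11 (0.18). For Lpl they were Fabp7, the brain-type fatty acid binding protein (0.14), Fgd4 (0.14) and Rcsd1 (0.16). Among the 10 lipid genes Plin2 lay closest to Pnpla2 (0.28), which ranked 160 among its neighbours, and Fabp4 lay 0.99 from Cd36.

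The wider pathway was described with 8 lists of 124 related genes, none of them among the 10, of which 83 were tested. These lists were chosen with earlier results of these data known, so no excess over all genes is read from their counts. In osteogenic medium 5 of the 83 differed by genotype (limma, adjusted p of 0.05), 4 higher and 1 lower, where 9.09% of all genes did, 4.94% higher and 4.15% lower. Fabp7 fell by 0.87 on the log2 scale (limma adjusted p = 0.000117), from 10.9, 11.6 and 11.2 to 5.57, 5.88 and 5.58 FPKM. The malic enzyme gene Me1 (0.52, limma adjusted p = 0.000427) and the desaturase gene Fads2 (0.52, limma adjusted p = 0.00358) rose, the latter short of the threshold on the TPM scale (limma adjusted p = 0.052). The count was 19 without control adipogenic library 2, where 22.2% of all genes passed. It was 27 when the osteogenic libraries were fitted alone, with 12 higher and 15 lower, where 26.6% of all genes passed. On the TPM scale it was 2, with 1 higher, where 4.08% of all genes passed.

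In adipogenic medium 33 of the 83 differed, 18 higher and 15 lower, where 33.2% of all genes did, 16.7% higher and 16.5% lower. On the TPM scale 29 did, 23 higher and 6 lower, where 32.3% of all genes did, 78.4% of them higher. That scale moved the median of all genes from -0.01 to 0.14. Without control library 2 the count was 53, 27 higher and 26 lower, where 51% of all genes passed. With the adipogenic libraries fitted alone it was 11, where 13% of all genes passed. Directions of whole lists below are given with their TPM counts for this reason. Without control library 2, oxidation had 11 genes higher and 0 lower, triglyceride breakdown 3 and 1, and droplet genes 3 and 2. Lipoprotein lipolysis had 0 and 4, transport and activation 3 and 4, and triglyceride synthesis 1 and 7. Synthesis, desaturation and elongation had 3 and 3, and nuclear regulators 3 and 5.

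Among genes of fatty acid oxidation 7 of 23 rose and none fell (8 and none on the TPM scale). Pdk4, a kinase that shuts off pyruvate oxidation, was at 17.4, 42.0 and 19.9 FPKM in the controls and at 86.3, 96.8 and 94.8 FPKM in the libraries labelled knockout (log2 difference 1.88 ± 0.25, limma adjusted p = 0.000409). The mitochondrial thiolase gene Acaa2 (0.73, limma adjusted p = 0.00111) rose too. Of 5 genes of triglyceride breakdown 3 rose (3 on the TPM scale): the monoglyceride lipase gene Mgll (1.24, limma adjusted p = 0.0203), G0s2, an inhibitor of adipose triglyceride lipase (0.81, limma adjusted p = 0.00114), and its activator Abhd5 (0.20, limma adjusted p = 0.0136). The call for Mgll was lost without control library 1 or 3 (limma adjusted p = 0.073 and 0.076) and without labelled knockout library 2 or 3 (0.057 and 0.064). That for Abhd5 was lost without control library 1 or labelled knockout library 3 (limma adjusted p = 0.052 and 0.051). The controls of Mgll were at 2.41, 9.83 and 2.71 FPKM, and its log2 difference was 1.77 without control library 2. Of 6 droplet genes 2 rose (2 on the TPM scale), Fitm2 (0.48, limma adjusted p = 0.00183) and Hsd17b11 (0.42, limma adjusted p = 0.00517).

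Of 5 genes of lipoprotein lipolysis 4 fell and none rose (2 and none on the TPM scale). Lipa, the lysosomal acid lipase, was at 308, 433 and 322 FPKM in the controls and at 160.2, 152 and 153 FPKM in the libraries labelled knockout (-1.17 ± 0.11, limma adjusted p = 4.5e-05). Angptl4, an inhibitor of lipoprotein lipase (-0.72, limma adjusted p = 0.0151), and Vldlr, a lipoprotein receptor (-0.43, limma adjusted p = 0.023), fell as well, but both calls were lost without control library 1 or 3 or labelled knockout library 3 (limma adjusted p from 0.05 to 0.087), and that for Angptl4 also without labelled knockout library 2 (limma adjusted p = 0.059). Of 9 genes of transport and activation 3 rose and 3 fell (4 and 2 on the TPM scale), with the caveolin gene Cav1 at 28.7, 35.1 and 29.5 against 71.96, 74.8 and 79.7 FPKM (1.26 ± 0.08, limma adjusted p = 4.09e-06), Slc27a3 at 0.83 (limma adjusted p = 0.000529) and the acyl-CoA synthetase gene Acsl1 at -1.33 (limma adjusted p = 0.027). The call for Acsl1 was lost without control library 1 or 3 or labelled knockout library 2 or 3 (limma adjusted p from 0.083 to 0.097). Of 12 genes of triglyceride synthesis 1 rose and 2 fell (2 and 2 on the TPM scale): Lpin1 (0.72, limma adjusted p = 0.00694) rose, while Dgat2, of the last step (-0.89, limma adjusted p = 0.00867), and Lpin2 (-0.54, limma adjusted p = 0.00638) fell. Of 12 genes of synthesis, desaturation and elongation 2 rose and 4 fell, but 3 rose and none fell on the TPM scale, so this list had no direction that held on both.

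Of 11 nuclear regulators 2 fell and none rose in adipogenic medium, and on the TPM scale 1 rose and none fell. The 2 that fell were the glucocorticoid receptor gene Nr3c1 (-0.32, limma adjusted p = 0.00217) and Ppard (-0.23, limma adjusted p = 0.0116). Pparg was at 3.85, 10.5 and 4.45 FPKM in the adipogenic controls and at 6.89, 12.4 and 10.8 FPKM in the libraries labelled knockout, which overlapped (0.68, limma adjusted p = 0.0986). Cebpa, a partner of Pparg in fat cell formation, was at 40.7, 73.2 and 41.4 against 53.0, 88.6 and 89.3 FPKM (0.58, limma adjusted p = 0.0824). Without control library 2 both passed, at 1.06 (limma adjusted p = 0.00099) for Pparg and 0.85 (limma adjusted p = 0.0033) for Cebpa.

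**Figure D5:**
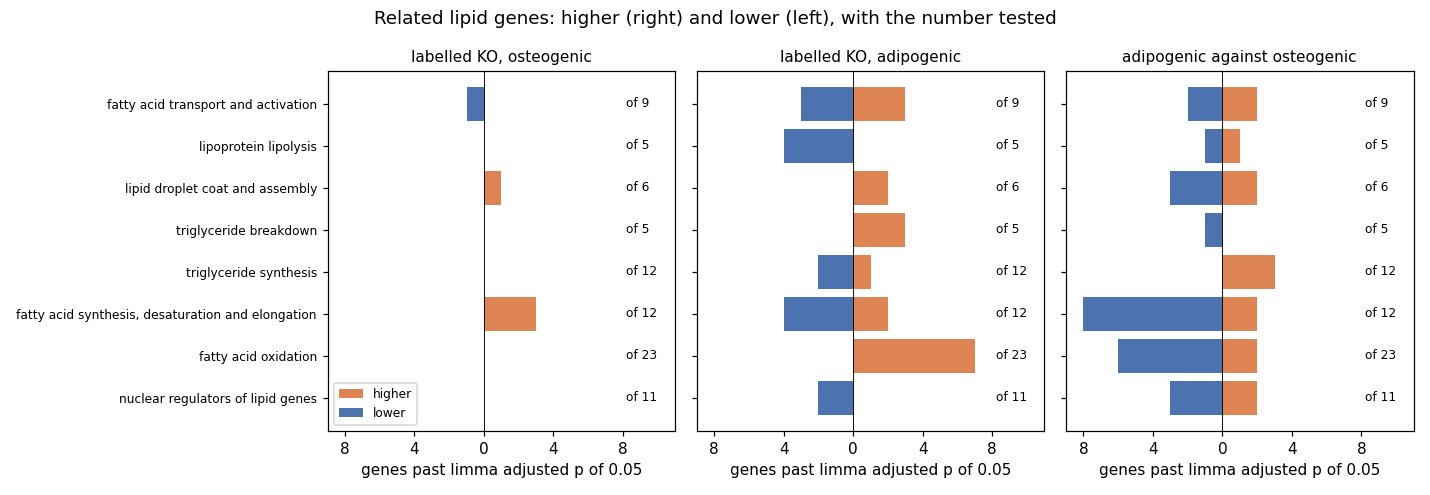
Number of genes past a limma adjusted p of 0.05 (x axis, higher to the right in orange, lower to the left in blue) in each of 8 related lists (y axis), for the genotype difference in osteogenic and in adipogenic medium and for the media averaged over genotypes; the number tested stands at the right. In adipogenic medium 7 of 23 oxidation genes are higher and none lower, and between the media 8 of 12 synthesis genes are lower.

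The genotype difference itself depended on the medium for 25 of the 83 related genes by limma's interaction (20.4% of all genes, 10.9% with a higher and 9.58% with a lower difference in adipogenic medium), 15 with a higher and 10 with a lower difference. Fabp7, Cav1 and Pdk4 were among the former, by 1.16 (limma adjusted p = 7.98e-05), 1.14 (limma adjusted p = 0.000117) and 1.99 (limma adjusted p = 0.00354) on the log2 scale. Lipa (-1.13, limma adjusted p = 0.000815), Dgat2 (-1.28, limma adjusted p = 0.0122) and Me1 (-0.84, limma adjusted p = 9.19e-05) were among the latter.

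Between the media, averaged over genotypes, 38 of the 83 related genes differed, 14 higher and 24 lower in adipogenic medium, against 31.5% of all genes. The genes of synthesis, desaturation and elongation fell in adipogenic medium in 8 of 12 cases and rose in 2 (8 and none on the TPM scale). They included Scd2, a paralogue of Scd1 (-0.82, limma adjusted p = 1.27e-05), Elovl6 (-0.70, limma adjusted p = 0.000309) and Fads2 (-0.54, limma adjusted p = 0.000157). Scd1 fell in the same comparison by 0.15. Cpt1a, the liver-type relative of Cpt1c, fell by 0.33 (limma adjusted p = 0.00556), where the average of Cpt1c over the genotypes rose. Plin3 was at 19.7 to 26.7 FPKM over all libraries, while Plin1 and Plin5 stayed at 0.18 FPKM or less in every library and were not tested. Fabp3 (19.0 to 26.7 FPKM) and Slc27a4 (10.3 to 13.5 FPKM) were detected in all libraries at levels that overlapped between the genotypes in both media.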

How the data were processed

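RNA-seq of bone marrow MSCs was used as deposited: the authors supplied FPKM values per Ensembl gene for the 12 libraries. The submitters' processing notes name Bowtie 0.12.2 and the mm9 build, while the study's reporting summary names HISAT2 and Ballgown, and which of them made the table is not given in the sources used here. Symbols, positions and exonic lengths came from GENCODE M21 (GRCm38), in which 54495 of 54532 IDs had a symbol. With those lengths 98.2 to 98.4% of values under 30 fragments were whole fragments within 0.02, and totals ran from 17496343 to 21099588 fragments. At that depth 3 fragments on 1 kb of exon equal 0.143 to 0.185 FPKM, covering counting error only.

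Genes with at least 1 FPKM in at least 3 libraries (12871) entered limma 3.58.1 (R 4.3.3) as log2(FPKM + 1), with 4 group means over all 12 libraries, a mean-variance trend, no covariate and Benjamini-Hochberg adjustment over all genes, called at 0.05. Fold changes on this scale understate those of low genes, while ratios in the text are ratios of mean FPKM. In simulated data for the adipogenic genotype comparison, 177 of 192 changed genes were called and 7 unchanged ones among 12383 genes. The simulation was not checked against the spread of the real adipogenic libraries, where a control library stood apart. Its counts are therefore not read as error rates of the real comparison. The labels do not say whether equal replicate numbers share a mouse or a batch, and this fit did not pair the libraries by them. Groups came from the sample labels. The lipid genes and the related and marker lists were chosen with earlier results of these data known. Beyond the lipid genes, up to 3 genes per list and comparison with the largest called log2 difference were named, plus Chd7, Pparg, Cebpa and close relatives of the lipid genes. A gene that this rule named is not reported here. Promoters were RefSeq windows. The 22 alternative fits changed pseudocount, filter, scaling, trend, block, samples or tool. Python 3.11.15 and matplotlib 3.10.9 were used for summaries and plots.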

Additional observations from a re-analysis of the deposited data

Results flagged for a closer look

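For 4 lipid genes every library labelled knockout lay below the controls in osteogenic and above them in adipogenic medium. The difference was not tested because the genes were chosen with it known. Of all genes tested 23.2% lay below without overlap in osteogenic and 20.2% above in adipogenic medium. The share that did both was not counted. On the TPM scale the groups of Lpl overlapped in adipogenic medium. The genotype difference in adipogenic minus that in osteogenic medium was 1.97 for Fabp4, 1.54 for Plin2, 1.28 for Lpl and 0.93 for Pnpla2 on the log2 scale.

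For 25 of the 83 related genes (30.1%) the genotype difference depended on the medium by limma's interaction, where 20.4% of all genes did. The related lists were chosen with earlier results of these data known, so nothing is read from the gap between these shares. On the TPM scale 19 passed, 14 of them with a higher difference in adipogenic medium, against 15 of the 25. Of all genes 17.6% passed on that scale, 75.4% of them with a higher difference. The named ones with a higher difference were Pdk4 (1.99), Fabp7 (1.16), Cav1 (1.14), Acaa2 (1.02), Lpin1 (0.95), Elovl5 (0.66), Hsd17b11 (0.62), Fitm2 (0.54), Acadm (0.47) and the retinoid receptor gene Rxra (0.25). Those with a lower one were Angptl4 (-1.30), Dgat2 (-1.28), Lipa (-1.13), Me1 (-0.84), Fads2 (-0.76), Acsl3 (-0.60), Ppard (-0.38) and Nr3c1 (-0.31). Fabp7 and Me1 had called genotype differences of opposite sign in the 2 media, 0.87 lower and 0.29 higher for Fabp7 and 0.52 higher and 0.32 lower for Me1, the latter lost on the TPM scale (limma adjusted p = 0.269). On that scale the interaction was lost for Acsl3, Fads2, Ppard, Nr3c1 and Rxra (limma adjusted p from 0.051 to 0.467). Leaving out single libraries ended it for Rxra, Elovl5 and Nr3c1 (limma adjusted p up to 0.088, 0.057 and 0.056). Groups of 3 libraries were not tested for single outlying libraries.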

How the results depend on the processing

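Over 22 alternatives, 3 of them chosen after seeing the data (voom on the recovered fragments, leaving out both adipogenic libraries that stood apart, and a block shared by all groups), no reported value of a named gene changed sign past its test. Of the lipid genes called between the media, Plin2, Cpt1c, Slc27a1 and Fabp5 passed in all 21 fits that give this contrast. The count of lipid genes called was 5 to 8, where 10.8% to 51.6% of all genes passed.

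Counts of related genes moved more. Leaving out 1 library at a time gave 3 to 19 in osteogenic medium, 20 to 53 in adipogenic medium, 18 to 50 for the interaction and 26 to 56 between the media, with the highest value of each without control adipogenic library 2. Without that library 22.2%, 51%, 42.2% and 51.6% of all genes passed in these comparisons. The osteogenic count was 3 without any 1 of the osteogenic libraries except labelled knockout library 2, where 4.13% to 4.92% of all genes passed. The adipogenic count was 21 and 20 without control library 1 and labelled knockout library 3 (23.5% and 21.7% of all genes). Without both control adipogenic library 2 and labelled knockout adipogenic library 1 the counts were 27, 55, 51 and 57. In that fit 27.8%, 52%, 45.9% and 51.4% of all genes passed. Fits of the osteogenic or adipogenic libraries alone gave 27 and 11 (26.6% and 13% of all genes), since the spread is then not shared over the media. The TPM scale gave 2 in osteogenic medium (4.08% of all genes), and the cause was not tested. With no filter on low values 27 passed between the media (10.8% of all genes), with more genes tested.

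The replicate numbers share no stated batch and their deviations did not correlate in every pair (-0.29 to 0.47). With the replicate block the counts were 4, 32, 23 and 29, where 5.78%, 30.2%, 16.9% and 24.7% of all genes passed. That fit called 5 lipid genes between the media, Scd1 being lost. The count of genotype differences of the lipid genes without overlap (17 of 20 in the 2 media) was 16 to 19. It was not run for the alternatives of pseudocount, filter, trend and block, which leave the overlap of the values as it is, nor for voom. Plin4 rested on 37 fragments in its lowest library.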

Other observations

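Seen gene by gene, control adipogenic library 2 did not stand on 1 side of the lipid genes. For 6 of the 10 (Fabp4, Plin4, Lpl, Cd36, Slc27a1 and Cpt1c) it lay between the other controls and the libraries labelled knockout, and for Fabp5 it lay past the latter, at 270.4 FPKM against 164 to 190 FPKM. For Plin2, Pnpla2 and Scd1 it lay on the far side of the other controls, so that leaving it out made their genotype difference smaller: 0.89, 0.35 and 0.22 in place of 0.97, 0.42 and 0.29 on the log2 scale. The macrophage marker Adgre1 was at 1171, 227 and 1136 FPKM in control adipogenic libraries 1, 2 and 3 and at 255, 130 and 127 FPKM in those labelled knockout, and Mrc1, a marker of alternatively activated macrophages, ran the other way at 36.8, 107 and 35.7 FPKM against 62.6, 110.3 and 101 FPKM.

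Endothelial markers were low, and several were higher in the libraries labelled knockout. Their summed level over 10 genes was 4.31 to 4.88 FPKM in control and 12.9 to 14.1 FPKM in labelled knockout osteogenic libraries, with 8 of the 10 higher without overlap (21% of all genes). In adipogenic medium it was 5.49 to 7.38 against 10.1 to 12.3 FPKM, with 6 of the 10 higher (20.2% of all genes). In control osteogenic libraries 8 of the 10 were under 1 FPKM in all 3, and in each other group 6 were. Tek lay at 0.03 to 0.29 FPKM, and Cldn5 was at 0 except in labelled knockout osteogenic library 2. Their part in the lipid gene differences was not tested.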
